A study of Mus musculus with 6 samples.

Results

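The tropomyosin genes Tpm1, Tpm2, Tpm3 and Tpm4 and the intronless copy Tpm3-rs7 were taken by gene symbol, 5 of the 32028 genes with summed counts, and all 5 were among the 12745 genes tested. The set was selected on the estimated counts of Tpm3-rs7 in this contrast, which nearly vanished in the knockout clones. That loss is therefore given as a description with no test. Poly(A) RNA was sequenced from 6 clones of mouse embryonic fibroblasts, immortalized with SV40 large T antigen and exposed overnight to AAV8-CMV-Cre, an adeno-associated virus that drives Cre recombinase from the CMV promoter. Colonies were then raised from single cells. The 3 het clones came from Macf1flox/+ mice and by the protocol kept 1 intact allele of Macf1, which encodes a giant cross-linker between the actin and microtubule networks. The 3 knockout clones came from Macf1flox/flox mice and, by the protocol, kept none. Both groups share the virus, the large T antigen and the cloning step, and by the labels no animal gave clones of both genotypes. The sources used here do not say whether the clones arose independently, so p-values measure the spread between clones.

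Tropomyosins are coiled-coil dimers that polymerize head to tail along the groove of the actin filament. They set which partners reach the filament, among them myosin II, cofilin and the Arp2/3 complex. Each gene gives several proteins through alternative first exons, which separate long from short forms, and through alternative internal and last coding exons. In fibroblasts the long forms are known from stress fibres, and the short forms from a wider range of actin structures. Tpm3-rs7 is a related sequence of Tpm3 without introns, the form of a copy that arose from a spliced mRNA.

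The sequences of Tpm3 and Tpm3-rs7 are shown first, because the values of this pair rest on how well reads can be told apart. Tpm3-rs7 (ENSMUSG00000058126) lies at chr14:113314608-113316754 on the plus strand of GRCm38 as a single exon. GENCODE M21 lists it as protein coding, and the RefSeq gene table lists it as a pseudogene. Its 744 coding bases aligned to those of the transcript Tpm3-201 with 741 identical bases. The substitutions were G72A, G98A and G127A, with the base of Tpm3 first and positions counted from 1 at the first base of the start codon. All 3 fell in the stretch of the first coding exon below, read from GRCm38, where capitals mark the bases that differ. The Tpm3 stretch is chr3:90079792-90079863 and that of Tpm3-rs7 is chr14:113314736-113314807, both on the plus strand.
Tpm3: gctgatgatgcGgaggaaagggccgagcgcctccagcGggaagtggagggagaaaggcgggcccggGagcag
Tpm3-rs7: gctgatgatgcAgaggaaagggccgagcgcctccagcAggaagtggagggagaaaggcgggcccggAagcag

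Over its 2147 bases, the Tpm3-rs7 transcript had 2103 bases aligned to Tpm3-201, of which 99.3% were identical. The 41 unaligned bases at its 3′ end held 34 A, with a longest run of 24 A. Cut into overlapping words of 31 bases, Tpm3-rs7 had 2117 words, and 1664 of them (78.6%) also occurred in Tpm3. The other 453 occurred in no other annotated transcript. Of the 2200 words of Tpm3-201, 1663 (75.6%) occurred in Tpm3-rs7. Among the annotated Tpm3 transcripts that retain an intron, the share ran from 15.9% in Tpm3-211 and 19.3% in Tpm3-207 to 73.2% in Tpm3-213. The word length of 31 was chosen for this description, and the setting behind the deposited counts was not stated. Besides Tpm3-rs7, the sequences outside Tpm3 that shared the most such words with Tpm3-201 were 5 processed pseudogenes, at 34 to 83 words. Transcripts that shared only a few words were not listed. The only one of the 5 in the count table, Gm19764, was at 0 in every library.

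**Figure D1:**
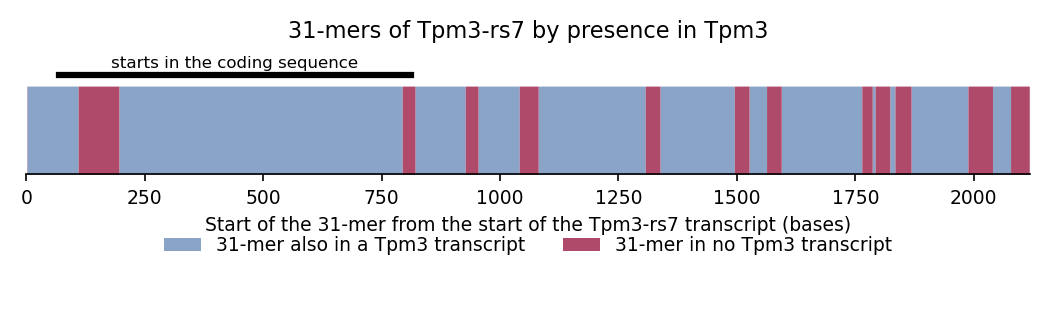
Each word of 31 bases along the Tpm3-rs7 transcript, by its start in bases on the horizontal axis and coloured by whether the same word occurs in a Tpm3 transcript. Of the 2117 words, 1664 occur in Tpm3, and the 453 words that occur only in Tpm3-rs7 lie in separate blocks, the last of them at the 3′ end, with long shared stretches between them.

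The libraries held between 15661342 and 18209673 estimated counts, with 16292 to 17447 genes above 0. Levels below are CPM, counts per 1000000 counts of the library total after scaling by TMM, the trimmed mean of M-values. Macf1, the targeted gene, averaged 655 ± 66.6 CPM in the het and 331 ± 27.9 CPM in the knockout clones (SD, n = 3), a log2 fold change of -0.99 (edgeR adjusted p = 0.00307). The exons removed by Cre were not looked at separately, so this value does not check the state of each allele. Throughout, a log2 fold change is knockout minus het, and a gene was called changed at an adjusted p under 0.05 in edgeR's quasi-likelihood test with Benjamini-Hochberg adjustment over all genes tested. The median log2 fold change over all tested genes was close to 0 (-0.000612). The labelled cell type was checked against marker lists. Of 10 fibroblast markers 7 were tested, and 6 were called lower in the knockout clones. Over all tested genes 14.2% were called lower and 13.9% higher, the background for all the marker lists. Among them, Col1a2, a chain of type I collagen, averaged 1055 ± 785 CPM in the het and 0.815 ± 0.435 CPM in the knockout clones, while Vim, which encodes vimentin, stood at 2422 ± 350 and 2863 ± 1104 CPM. The fibroblast markers summed to between 4516 and 6871 CPM in the het clones and between 2068 and 4126 CPM in the knockout clones. Lum was at 0 in all clones, and Thy1 and Dcn, at or near 0, were not tested. Of 9 epithelial markers only Krt19 was tested and it was lower, with list sums of 16.3 to 56.7 CPM against 0.676 to 1.08 CPM. The 12 muscle markers summed to 1.56 to 2.89 CPM in the het and 2.90 to 5.46 CPM in the knockout clones. Of the 2 tested, Des, which encodes the intermediate filament protein desmin, was called higher, at 1.10 ± 0.408 and 3.08 ± 1.05 CPM, a call lost whichever single clone was left out. Myod1, Myog, Myf5, Mymk and Nkx2-5 were at 0. The 9 endothelial and blood markers summed to 4.90 to 8.77 CPM against 6.71 to 8.68 CPM, with Hbb-bs at 0 and neither of the 2 tested called. Levels in clones cannot separate fewer cells of a kind from less RNA per cell. The part of these marker differences in the results below was not tested.

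Tpm3-rs7 was well expressed in the het clones and almost gone in the knockout clones. Its counts were 223, 229.8 and 209 CPM in het replicates 1, 2 and 3, and 1.08, 1.08 and 0.552 CPM in knockout replicates 1, 2 and 3. The estimated counts behind these values were 3731, 4093.2 and 3332.8 in the het clones, and 17.8, 17.5 and 10.7 in the knockout clones. All 3 het clones lay close together, all 3 knockout clones were near 1 CPM or below, and the groups did not overlap. The means of 220.5 ± 10.8 and 0.904 ± 0.305 CPM (SD, n = 3) differed 244-fold, with a fitted log2 fold change of -7.91. In the authors' deposited table its transcript had a log2 fold change of -7.90.

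**Figure D2:**
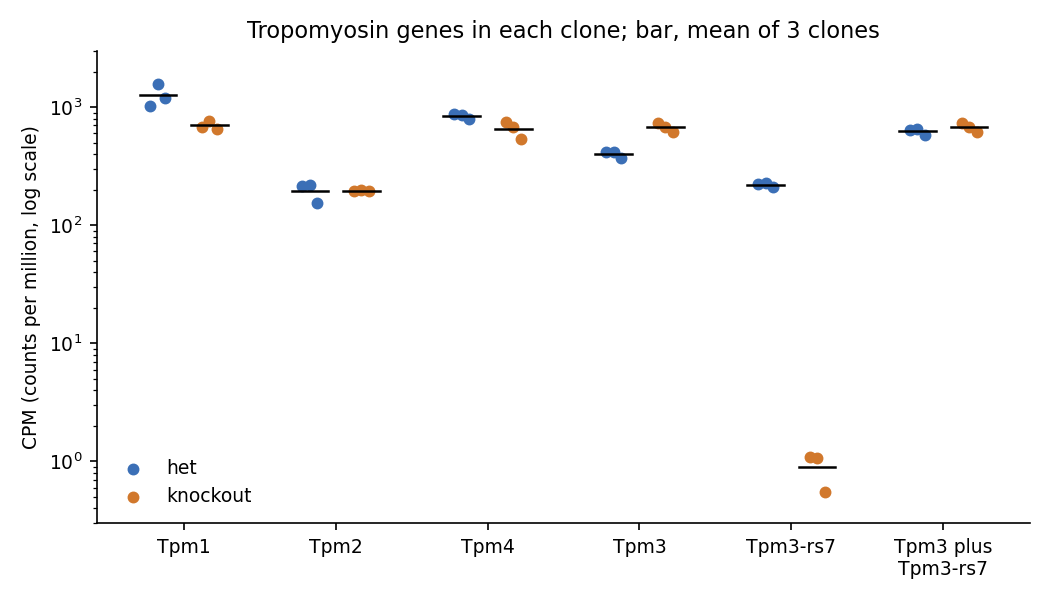
Level of each tropomyosin gene in the 6 clones, in CPM on a log scale, with points for clones and bars for the mean of 3 clones. Tpm3-rs7 drops from a mean of 220.5 to 0.904 CPM, Tpm3 lies higher and Tpm1 lower in the knockout clones without overlap, and the clones of Tpm2 overlap.

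Tpm3, the parent gene (ENSMUSG00000027940, chr3:90072649-90100902, plus strand), moved the opposite way. It had 417, 419 and 368 CPM in het replicates 1, 2 and 3, and 734, 680.3 and 619 CPM in knockout replicates 1, 2 and 3. Every knockout clone lay above every het clone. The means were 401 ± 28.8 and 678 ± 57.8 CPM, a log2 fold change of 0.76 (SE 0.12, 95% interval 0.47 to 1.05, edgeR adjusted p = 0.00611). Of the 4 members with a test, 1 was called higher (Tpm3) and 1 lower (Tpm1), where 28.1% of all genes were called, 13.9% higher and 14.2% lower. Tpm3 was called in all 12 alternative analyses, with log2 fold changes between 0.69 and 0.81. All of these started from the deposited estimates, so none varied the division of reads shared with Tpm3-rs7. Because the set was selected on Tpm3-rs7, the p-value of Tpm3 may not be independent of that selection.

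The Tpm3 values have to be read beside those of Tpm3-rs7, since reads that match both copies were divided between them by estimation. Tpm3 gained 277 CPM on average in the knockout clones, and Tpm3-rs7 lost 219.6 CPM. Added together, the pair had 640.3, 648 and 577 CPM in het replicates 1, 2 and 3 and 736, 681 and 619.6 CPM in knockout replicates 1, 2 and 3. The ranges overlapped, because knockout replicate 3 lay below het replicates 1 and 2. The summed means were 622 ± 39.2 and 679 ± 58.0 CPM (SD, n = 3). Fitted as 1 gene, the sum had a log2 fold change of 0.13 (SE 0.12, 95% interval -0.17 to 0.42), and it stayed between 0.06 and 0.18 in the alternatives. Of the counts of the pair, Tpm3-rs7 held 35.5% ± 0.681 in the het and 0.131% ± 0.0371 in the knockout clones. How much of the difference in Tpm3 comes from the division of shared reads was not tested.

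**Figure D3:**
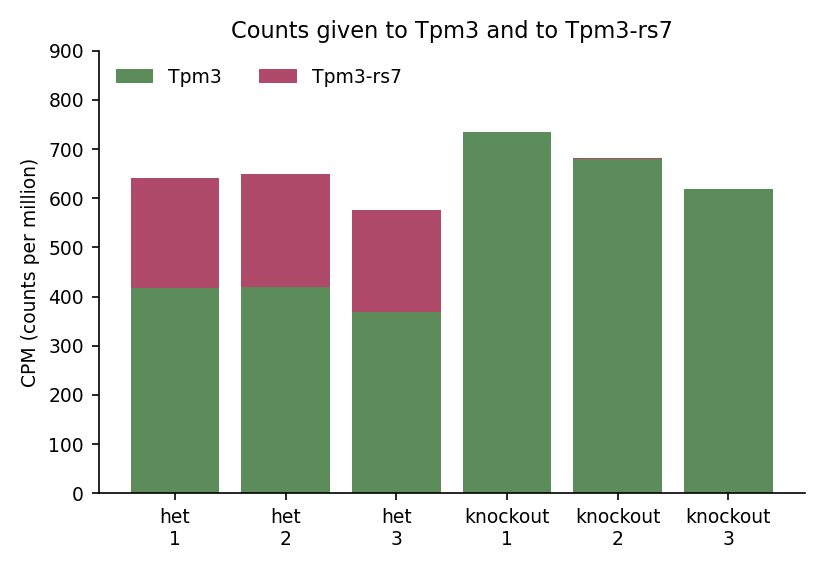
Counts assigned to Tpm3 and to Tpm3-rs7 in each clone, in CPM, stacked so that the height of a bar is their sum. The sums lie between 577 and 648 CPM in the het clones and between 619.6 and 736 CPM in the knockout clones, while the Tpm3-rs7 segment is visible only in the het clones.

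Of the Tpm3 transcripts, the calls fell on short coding forms. Tpm3-201, the main short form, averaged 351 ± 20.6 CPM in the het and 633 ± 65.7 CPM in the knockout clones and rose by a log2 fold change of 0.85 (edgeR adjusted p = 0.0143 over 34655 transcripts). Tpm3-202, a short form that ends in another last coding exon, rose from 18.2 ± 5.36 to 45.4 ± 9.54 CPM, a log2 fold change of 1.32 (edgeR adjusted p = 0.0319). These were the only 2 of the 10 kept Tpm3 transcripts called. Over all transcripts 7.94% were called, 4.16% higher and 3.77% lower. The call of Tpm3-201 was lost when het replicate 2 (edgeR adjusted p = 0.0569), het replicate 3 (0.0557), knockout replicate 1 (0.0505) or knockout replicate 2 (0.0714) was left out, with log2 fold changes from 0.78 to 0.88. For Tpm3-202 it was lost without any 1 of 5 clones, all but het replicate 1 (edgeR adjusted p 0.0728 to 0.115).

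The other coding transcripts of Tpm3 were rare. The long forms Tpm3-205 and Tpm3-204 averaged 1.34 and 0.950 CPM in the het clones and 2.36 and 1.73 CPM in the knockout clones, and neither passed. All 5 kept coding transcripts had positive log2 fold changes, from 0.31 to 1.32, and all 5 kept transcripts without a coding sequence had negative ones, from -1.90 to -0.17. Summed, the transcripts without a coding sequence had 18.7, 16.6 and 15.6 CPM in het replicates 1, 2 and 3, and 7.78, 12.2 and 11.4 CPM in knockout replicates 1, 2 and 3. The groups did not overlap, but none of these 5 transcripts passed the test, and for some the interval was wide (Tpm3-210, -3.02 to 2.69). Among the transcripts that were not kept, those that retain an intron went both ways. Means of Tpm3-213 and Tpm3-216 were higher in the knockout clones, 0.322 and 0.476 CPM against 0.197 and 0.210 CPM. Those of Tpm3-212 and Tpm3-209 were lower, 0.00259 and 0 CPM against 0.613 and 0.0980 CPM. The het means of Tpm3-212 and Tpm3-209 came almost wholly from het replicate 1 (1.83 CPM) and het replicate 3 (0.294 CPM). Most counts of the 5 kept transcripts without a coding sequence were those of Tpm3-207, which retains an intron. It averaged 12.6 ± 1.5 CPM in the het and 7.50 ± 1.81 CPM in the knockout clones (log2 fold change -0.74, edgeR adjusted p = 0.130). In words of 31 bases, the kept transcripts without a coding sequence shared between 0% and 59.7% with Tpm3-rs7, and the kept coding ones between 36.1% and 75.6%.

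Tpm1, which encodes the main long tropomyosins of stress fibres and of muscle (ENSMUSG00000032366, chr9:67022590-67049406, minus strand), fell in the knockout clones. It had 1022, 1559 and 1186 CPM in het replicates 1, 2 and 3, and 679, 769.8 and 654 CPM in knockout replicates 1, 2 and 3. Het replicate 2 was the highest clone, and every knockout clone lay below every het clone. The means were 1256 ± 275 and 701 ± 60.7 CPM, a log2 fold change of -0.84 (SE 0.19, 95% interval -1.28 to -0.40, edgeR adjusted p = 0.0178) or 1.79-fold. The call was lost without knockout replicate 1 (edgeR adjusted p = 0.0653) and without knockout replicate 2 (0.0610), at log2 fold changes of -0.82 and -0.91, and held when any other single clone was left out.

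Of the 14 kept transcripts of Tpm1, 12 had negative log2 fold changes, 3 were called lower and 0 higher by edgeR. Tpm1-213, a long form, had 324, 353 and 302 CPM in het replicates 1, 2 and 3 and 202, 184 and 157 CPM in knockout replicates 1, 2 and 3, without overlap. Its log2 fold change was -0.85 (edgeR adjusted p = 0.0177). The other called transcripts, the long forms Tpm1-210 (log2 fold change -1.22, edgeR adjusted p = 0.0295) and Tpm1-207 (-1.09, 0.0481), had fewer counts, at 38.4 and 56.7 CPM in the het clones. Leaving out single clones removed the call of Tpm1-213 in 3 cases (het replicate 2 and knockout replicates 1 and 2), of Tpm1-210 in 5 (all clones but knockout replicate 2) and of Tpm1-207 in all 6. The transcript with the most counts, the long form Tpm1-216, averaged 478 ± 165 and 236 ± 32.5 CPM, with het clones at 309.9, 639 and 485 CPM. Its log2 fold change of -1.02 did not pass (edgeR adjusted p = 0.0753), though it was called with DESeq2 (adjusted p = 0.00392) and without het replicate 1 (edgeR adjusted p = 0.0261). The short form Tpm1-211, at 192 ± 44.6 and 148 ± 11.1 CPM, did not pass either (log2 fold change -0.38, edgeR adjusted p = 0.256), and its clones overlapped. The authors' deposited table listed 13 Tpm1 transcripts, with 7 lower and 0 higher at its own adjusted p under 0.05, and 7 Tpm3 transcripts, with 2 higher and 1 lower. Of all transcripts in the authors' deposited table, 6.43% were higher and 7.60% lower at that threshold. The lower Tpm3 transcript was Tpm3-208, a short transcript with a retained intron, at a log2 fold change of -2.05 in the authors' deposited table.

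Tpm1-205 was 1 of 2 kept Tpm1 transcripts with a positive log2 fold change. The other, Tpm1-202, averaged 1.39 CPM in the het and 1.80 CPM in the knockout clones (log2 fold change 0.36) and did not pass. Tpm1-205 had 16.7, 29.0 and 23.9 CPM in het replicates 1, 2 and 3 and 34.2, 45.6 and 41.8 CPM in knockout replicates 1, 2 and 3. All knockout clones lay above all het clones, but as a level the difference did not pass (log2 fold change 0.80, edgeR adjusted p = 0.0868). As a share of the counts of Tpm1, the transcript stood at 1.88% ± 0.171 in the het and 5.65% ± 0.756 in the knockout clones. Its change relative to the rest of the gene was 1.09 on the natural log scale (edgeR diffSpliceDGE adjusted p = 0.0227). It was the only 1 of the 30 family transcripts tested for usage that was called, where 0.696% of all transcripts were called, 0.292% higher and 0.403% lower. The log2 ratio to the other transcripts of the gene differed by 1.64 (limma adjusted p = 0.0218). This alternative was added after results on simulated counts had been seen. On simulated counts the usage test was loose, with 40 calls among unchanged transcripts beside 10 among 200 changed ones. The diffSpliceDGE call was lost without het replicate 1 (adjusted p = 0.0504), het replicate 3 (0.101), knockout replicate 2 (0.113) or knockout replicate 3 (0.0753). The usage change, again as a natural log, stayed between 1.04 and 1.16 in all leave-one-out fits.

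Tpm1-205 and Tpm1-216 carry different last long coding exons, which encode the end of the protein that overlaps the next dimer along the filament. They are shown because the share of the gene that ends in each is described next. The exon of Tpm1-205 is chr9:67029664-67029742 and that of Tpm1-216 is chr9:67023362-67023441, both on the minus strand of GRCm38 and written in the sense of the mRNA.
Tpm1-205: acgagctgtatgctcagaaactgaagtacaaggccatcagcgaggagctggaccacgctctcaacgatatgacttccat
Tpm1-216: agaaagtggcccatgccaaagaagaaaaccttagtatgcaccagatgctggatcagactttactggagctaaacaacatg

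Aligned to each other, the exons had 42 identical bases in 84 columns. Coding transcripts that end in the exon of Tpm1-205 held 4.99%, 4.88% and 4.87% of the coding Tpm1 counts in het replicates 1, 2 and 3, and 9.15%, 10.9% and 11.3% in knockout replicates 1, 2 and 3. Those that end in the exon of Tpm1-216 held 84.9% ± 0.846 in the het and 81.8% ± 2.69 in the knockout clones. The remaining 2 last exons held 4.80% and 5.36% in the het clones, and 3.78% and 3.95% in the knockout clones. So the exon of Tpm1-205 roughly doubled its share while the gene as a whole was lower. This grouping by last exon was made after the values of Tpm1-205 had been seen and has no test. For Tpm2 the shares of its 2 last exons were almost equal between genotypes, 32.4% and 32.2% for the smaller.

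**Figure D4:**
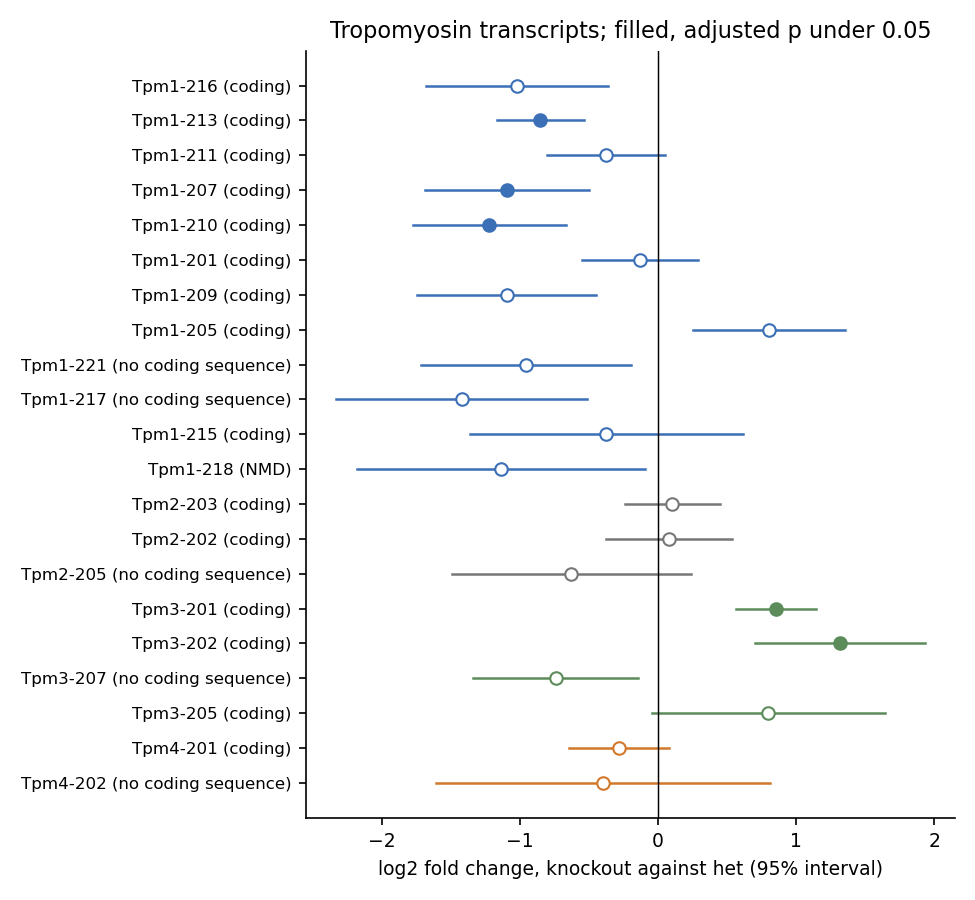
Log2 fold change, knockout minus het, with 95% intervals, of the transcripts of Tpm1, Tpm2, Tpm3 and Tpm4 with a mean of 2 CPM or more in either genotype (filled points, edgeR adjusted p under 0.05; NMD, a transcript annotated for nonsense-mediated decay). Tpm1-205 lies above 0 at 0.80 while the other Tpm1 transcripts drawn lie below it, and the Tpm3 transcripts drawn lie above 0 except Tpm3-207, which has no coding sequence.

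Tpm2, a long tropomyosin of muscle and of stress fibres (ENSMUSG00000028464, chr4:43514711-43523765, minus strand), stood at the same mean level in both genotypes. Its values were 215, 218 and 154 CPM in het replicates 1, 2 and 3 and 194, 197 and 196 CPM in knockout replicates 1, 2 and 3. Het replicate 3 was the lowest clone, and the knockout clones lay within the range of the het clones. The log2 fold change was 0.00, with a 95% interval of -0.34 to 0.34 (edgeR adjusted p = 0.987). Its main transcripts, Tpm2-203 and Tpm2-202, both long forms, had log2 fold changes of 0.10 and 0.08, and 0 of 4 kept transcripts were called (at an unadjusted p under 0.05 also 0).

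Tpm4, a mainly short tropomyosin of non-muscle cells (ENSMUSG00000031799, chr8:72134975-72153142, plus strand), did not pass the test. It had 870.5, 857 and 798 CPM in het replicates 1, 2 and 3, and 753, 676 and 541 CPM in knockout replicates 1, 2 and 3. All knockout clones were below all het clones, with knockout replicate 3 the lowest. The log2 fold change was -0.36 with a 95% interval of -0.72 to 0.01 (edgeR adjusted p = 0.126). Nearly all of its counts, 99.7% in both genotypes, were those of the short form Tpm4-201. Clones of the genotypes did not overlap for Tpm1, Tpm3, Tpm4 and Tpm3-rs7. Over all tested genes, 47.5% showed no overlap.

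Levels can be compared between genes only per length, for which the deposited FPKM values, fragments per kilobase of transcript scaled to the depth of the library, were summed per gene. In the het clones Tpm1 was the most abundant tropomyosin at 768 ± 164 FPKM, followed by Tpm4 at 406 ± 13.5, Tpm3 at 187 ± 10.4, Tpm2 at 144 ± 23.3 and Tpm3-rs7 at 106 ± 4.05 FPKM. The order of Tpm1, Tpm4 and Tpm3 held in every het clone, and so did that of Tpm2 above Tpm3-rs7. In the knockout clones Tpm1 stood at 442 ± 35.8, Tpm4 at 324 ± 50.2, Tpm3 at 318 ± 26.0, Tpm2 at 149 ± 1.58 and Tpm3-rs7 at 0.444 ± 0.147 FPKM. There Tpm4 and Tpm3 were neighbours that did not differ beyond their spread. The whole family summed to 1610 ± 179 FPKM in the het and 1233 ± 86.4 FPKM in the knockout clones, and in counts to 2915 ± 319 and 2233 ± 193 CPM. As a share of the family in FPKM, Tpm1 went from 47.4% to 35.9% and Tpm3 from 11.6% to 25.8%. Tpm3 and Tpm3-rs7 together made up 18.3% of the family in the het clones and 25.8% in the knockout clones.

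**Figure D5:**
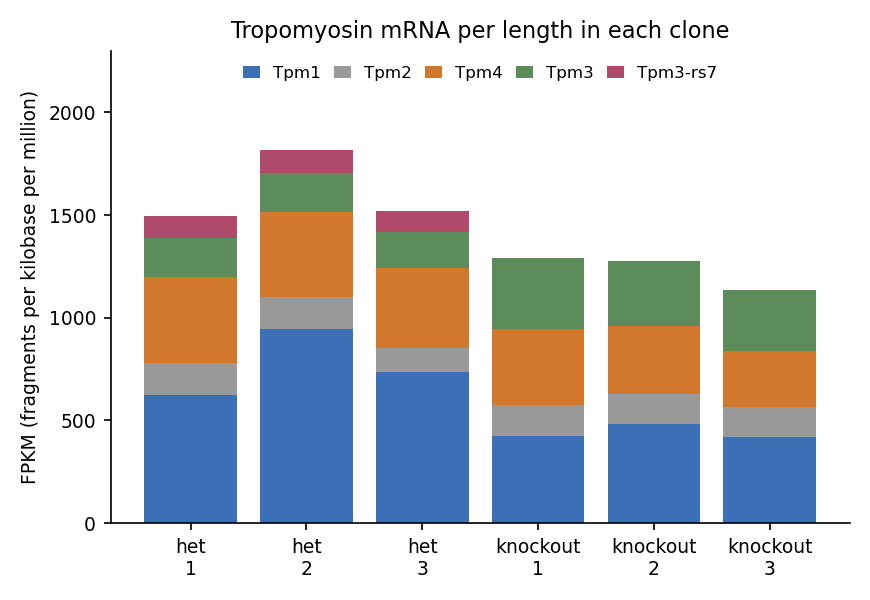
Summed FPKM of the tropomyosin genes in each clone, stacked by gene. The sums lie between 1495 and 1817 FPKM in the het clones and between 1133 and 1289 FPKM in the knockout clones, with a smaller Tpm1 and a larger Tpm3 segment in the knockout clones.

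Long forms were counted as transcripts coding for 270 or more residues. For Tpm1 they held 81.2%, 81.6% and 82.5% of the coding counts in het replicates 1, 2 and 3, and 77.7%, 80.1% and 73.5% in knockout replicates 1, 2 and 3. The knockout clones were all lower, with a difference of means of -4.65 percentage points, or -2.85 without knockout replicate 3, the lowest. A two-sided exact permutation test gave p = 0.1, the smallest that 3 against 3 clones allow, so the design cannot pass the threshold. For Tpm3 the long forms held 0.613% ± 0.0993 and 0.608% ± 0.285 (exact permutation p = 0.9). Over the whole family, long forms made up 47.6% ± 3.11 of the FPKM in the het and 39.8% ± 2.55 in the knockout clones, again with exact permutation p = 0.1.

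Genes whose products work with tropomyosin were taken as lists and counted against the same background of 13.9% higher and 14.2% lower calls. Among the actins, 3 of 6 genes were tested and 1 was lower. That was Acta2, smooth muscle actin, with 37.4, 36.3 and 8.96 CPM in het replicates 1, 2 and 3 and 1.71, 0.676 and 0.671 CPM in knockout replicates 1, 2 and 3. Het replicate 3 was well below the other het clones but still above every knockout clone (log2 fold change -4.76, edgeR adjusted p = 0.00524). The cytoplasmic actins Actb and Actg1 had log2 fold changes of -0.52 and -0.51 and did not pass (edgeR adjusted p = 0.117 and 0.265). The median of the 3 was -0.52.

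Partners at the pointed end and along the thin filament were listed as tropomodulins, leiomodins, troponins, caldesmon and calponins. Of these, 10 of 19 were tested, with 1 higher, 3 lower and a median log2 fold change of -0.54. All 4 that passed are genes known from muscle or nerve, and most were at low levels here. Tmod2, the neuronal tropomodulin that caps pointed ends, went from 10.8 ± 8.66 to 2.16 ± 0.864 CPM (log2 fold change -2.32, edgeR adjusted p = 0.0326), with het replicate 1 at 20.8 and the other het clones at 5.36 and 6.29 CPM. The troponin genes Tnni3 and Tnnc1, of heart and of heart and slow muscle, had 1.90 ± 0.658 and 0.291 ± 0.242 CPM and 1.45 ± 0.458 and 3.97 ± 0.288 CPM (log2 fold changes -2.64 and 1.44, edgeR adjusted p = 0.0184 and 0.0193). Tmod4, the tropomodulin of skeletal muscle, was the other one lower, from 0.735 to 0.222 CPM. These 4 calls rest on few clones. Leaving out het replicate 3, knockout replicate 1 or knockout replicate 2 removed those of Tnni3 and Tnnc1, leaving out any knockout clone removed that of Tmod2, and leaving out any clone but knockout replicate 3 removed that of Tmod4. The broadly expressed tropomodulin Tmod3 stood at 115 ± 12.5 and 117 ± 7.0 CPM, a log2 fold change of 0.03 that did not pass. It turned to -0.05 without het replicate 3. Tmod3 and Tmod4 were named after their values had been seen.

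Of the myosin II chains with their kinase and phosphatase, 14 of 15 genes were tested, with 1 higher, 2 lower and a median of -0.02. Myl9, a regulatory light chain, fell from 8.93 ± 4.91 to 0.526 ± 0.183 CPM (log2 fold change -4.08, edgeR adjusted p = 0.00267). Ppp1r12b, a targeting subunit of myosin phosphatase, fell from 57.2 ± 17.3 to 27.9 ± 2.29 CPM (log2 fold change -1.04, edgeR adjusted p = 0.0182). Its relative Ppp1r12a rose from 103 ± 8.03 to 131 ± 1.62 CPM (log2 fold change 0.34, edgeR adjusted p = 0.0332). Both phosphatase calls were lost when single clones were left out, that of Ppp1r12b for all but het replicate 1 and that of Ppp1r12a for each of the 6.

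Among 20 stress-fibre cross-linkers and LIM proteins, all tested, 3 were higher and 3 lower, with a median of -0.08. Pdlim1, an actinin-binding LIM protein, rose from 136 ± 6.03 to 389 ± 47.5 CPM (log2 fold change 1.52, edgeR adjusted p = 0.000576). Tagln, the actin-binding transgelin, fell from 48.9 ± 20.6 to 2.2 ± 0.893 CPM (log2 fold change -4.48, edgeR adjusted p = 0.00131). Csrp2, a LIM protein of smooth muscle, fell from 87.9 ± 22.5 to 12.7 ± 2.85 CPM (log2 fold change -2.78, edgeR adjusted p = 0.000923). The others called, named after their values had been seen, were Flnc and Zyx, higher at log2 fold changes of 1.33 and 1.17, and Synpo, lower at -1.19. The call of Flnc held only when the clone left out was het replicate 1 or knockout replicate 3. In each of these genes all knockout clones lay on the same side of all het clones, as they did for 47.5% of all tested genes. In the same clones 6 of the 7 tested fibroblast markers were lower, Vim being the exception, and whether this is related to the loss of Acta2, Myl9 and Tagln was not tested.

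Formins, the Arp2/3 complex and cofilins assemble and sever the filaments that tropomyosin coats or leaves bare. All 18 were tested, with 2 higher, 0 lower and a median of 0.08. Cfl2, the muscle-type cofilin, had 92.7, 81.3 and 60.4 CPM in het replicates 1, 2 and 3 and 171, 165 and 154 CPM in knockout replicates 1, 2 and 3 (log2 fold change 1.06, edgeR adjusted p = 0.00478). The formin gene Diaph2 rose from 29.8 ± 1.38 to 43.0 ± 2.02 CPM (log2 fold change 0.53, edgeR adjusted p = 0.00881).

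Of 24 genes for proteins that regulate splicing, drawn up for the alternative exons of tropomyosin, 19 were tested, with 2 higher, 1 lower and a median of -0.05. Ptbp2, the neuronal polypyrimidine tract binding protein, rose from 50.7 ± 6.93 to 74.3 ± 5.45 CPM (log2 fold change 0.55, edgeR adjusted p = 0.0197). Khsrp, a KH-domain splicing and decay factor, rose from 87.9 ± 17.4 to 145 ± 3.71 CPM (log2 fold change 0.72, edgeR adjusted p = 0.0125). Mbnl3, a muscleblind protein, fell from 13.1 ± 3.22 to 5.0 ± 0.373 CPM (log2 fold change -1.39, edgeR adjusted p = 0.00646). SRF and its cofactors drive many actin and tropomyosin genes. Of the 10 listed, 8 were found by symbol among the counts and 7 were tested, with 0 higher, 1 lower and a median of 0.07. Elk4, a ternary complex factor, fell from 47.7 ± 1.80 to 32.6 ± 2.49 CPM (log2 fold change -0.55, edgeR adjusted p = 0.00931), and neither of the most abundant others passed. These were Elk3, another ternary complex factor, at 109.9 ± 27.3 and 91.0 ± 4.95 CPM (log2 fold change -0.27, edgeR adjusted p = 0.275), and Mrtfb, an actin-sensing cofactor, with a log2 fold change of 0.07 (edgeR adjusted p = 0.612). Leaving out any clone but het replicate 1 and knockout replicate 3 removed the call of Ptbp2, and leaving out knockout replicate 2 removed those of Khsrp and Elk4.

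The genes whose pattern was most like that of Tpm3-rs7 were found by the root-mean-square difference of centred log2(CPM + 0.5) over the 6 clones. They were Bcat1, a cytosolic branched-chain aminotransferase (difference 0.275), Rps3a3, annotated as a processed pseudogene of a ribosomal protein gene (0.36), the sulfatase gene Arsj (0.364), the tubulin gene Tubb2b (0.406) and the transcription factor gene Ebf3 (0.430). In the het clones Bcat1 had 145, 113 and 103 CPM and Rps3a3 77.0, 66.9 and 64.4 CPM. In the knockout clones Bcat1 had 0.488, 0.673 and 0.359 CPM, and Rps3a3 was at 0 in 2 clones and at 0.140 CPM in the third. Arsj and Ebf3 were at 0 in every knockout clone. These genes were picked for their likeness, so their loss has no test of its own.

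The genome around Tpm3-rs7 held few expressed genes. Within 5 Mb on either side, 14 genes other than it were in the count table and 3 were tested. Gpc6, a glypican gene 3.61 Mb downstream, was called higher, with 7.47, 1.15 and 0.217 CPM in het replicates 1, 2 and 3 and 77.2, 82.3 and 63.3 CPM in knockout replicates 1, 2 and 3 (log2 fold change 4.65, edgeR adjusted p = 0.0238). Het replicate 1 was the highest het clone but far below every knockout clone. The call was lost without het replicate 2 or without any of the knockout clones (edgeR adjusted p 0.0547 to 0.0770), and with no filter on low counts (0.0731). Tgds and Gpr180, 4.80 and 4.82 Mb away, had log2 fold changes of 0.00 and 0.05 and did not pass. The nearest tested gene on the other side, Trim52, lay 7.18 Mb away and was below 1 CPM in every clone, with a log2 fold change of 0.29 (edgeR adjusted p = 0.588). On the whole of chromosome 14, 101 of 411 tested genes (24.6%) were called, against 28.1% over all genes, and 74 (18.0%) were lower, against 14.2%. The median log2 fold change on the chromosome was -0.16.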

How the data were processed

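Libraries of 6 clones were made from poly(A) RNA with a strand-specific kit, according to the extraction labels. Named in the submitters' processing notes are edgeR without a version, Trimmomatic 0.36 and kallisto 0.42.5, as well as GRCm38.p4. What the authors deposited were estimated counts per transcript, FPKM values, and a table with log2 fold changes and p-values. The members and gene lists were chosen with earlier results of these data known. Of 96626 transcripts, 95213 matched GENCODE M21, 260 were assigned through the authors' table and 1153 were left out. Estimated counts were summed per gene, rounded, filtered (filterByExpr, count minimum 10, total minimum 15), scaled by TMM and put through the quasi-likelihood test (robust) of edgeR 4.0.16 (R 4.3.3), two-sided, with all genes adjusted together. Transcripts were tested in the same way, and their usage with diffSpliceDGE. A gene symbol with 2 IDs (Srsf1) was counted once. Sequences were read from GRCm38 and aligned with Biopython 1.88. FPKM values were summed per gene for levels, and the pseudocounts for limma 3.58.1 were 1 and 0.1.

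From each list, up to 3 passing genes with the smallest adjusted p were named, and, with fewer than 2 passing, also the 2 others of highest level. Alternatives were DESeq2 1.42.0, RLE scaling, library totals, no filter, limma on log2 FPKM, and each clone left out. On simulated counts with 200 changed features, the gene test recovered 4.5%, 47.8% and 78.8% of genes changed 1.5-, 2- and 4-fold, with 12 calls among unchanged genes. The transcript test recovered 0%, 1.5% and 18.2% with 2 such calls, so transcript changes of moderate size would often be missed. For usage, 3 forms were tried on simulated counts. The design as written made 40 calls among unchanged transcripts, a likelihood-ratio form, not used further, made 64, and limma on log ratios, added then, made 0 but recovered 0 of 200.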

Additional observations from a re-analysis of the deposited data

How the results depend on the processing

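The directions of Tpm1, Tpm3, Tpm4, Tpm3-rs7 and of the sum of Tpm3 and Tpm3-rs7 were the same under every alternative run, and Tpm4 was called under none. On log2(FPKM + 1) the difference in Tpm3-rs7 was -6.21. Of the single values recomputed under the alternatives, 627 kept direction and call, 84 lost a call, 6 gained one, 25 changed sign and 1 moved in size. The calls of Tpm1-207, Tmod4, Ptbp2, Ppp1r12a and Des were lost in 8, 8, 6, 7 and 7 alternatives. For each of these, the losses include at least 1 alternative run on all 6 clones. The gained calls were those of Tpm1-216, Tpm1-205, Tpm1-209, Tpm1-217 and Actb with DESeq2 (adjusted p 0.00392, 0.0154, 0.00441, 0.00810 and 0.0420) and of Tpm1-216 without het replicate 1. With each clone left out in turn, Tpm1 ranged from -0.97 to -0.66 on the log2 scale and lost its call without knockout replicate 1 or knockout replicate 2. Calls over all genes numbered 3585, and 1565 to 3825 with a clone left out (1565 without knockout replicate 2, 1894 without knockout replicate 1, 2227 without het replicate 2). Transcript calls numbered 2750, against 5797 with DESeq2 and 456 to 2103 with a clone left out (456 without knockout replicate 2, 546 without het replicate 2, 586 without knockout replicate 1, 878 without het replicate 3, 1775 without knockout replicate 3). Usage calls numbered 207, and 82 with a count minimum of 50. Fewer samples enter the fits without a clone, and fewer transcripts that with the higher minimum. The cause of the higher count with DESeq2 was not tested.

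Values near 0 changed sign. Tpm2 became -0.00598 with RLE scaling and -0.00854 with library totals, and ranged from -0.14 to 0.0797 without single clones. For the following, ranges are again over clones left out, and none was called under any alternative: Tpm2-202 (-0.00216 with library totals, range -0.0753 to 0.27), Tpm2-203 (-0.0298 to 0.21), Tpm1-201 (-0.21 to 0.0289), Ckm (-0.10 to 0.36), Tmod3 (-0.0494 to 0.0986), Tgds (0.00441 with DESeq2, 0.0213 with no filter, 0.0312 and 0.0286 on log2(FPKM + 0.1) and log2(FPKM + 1), range -0.0781 to 0.0508) and Cd68 (0.0607 and 0.0432 on log2(FPKM + 0.1) and log2(FPKM + 1), range -0.35 to 0.0165). No paired analysis was possible, because by the labels no animal gave clones of both genotypes. Transcripts of low counts had little power, and a p above the threshold does not show equal levels.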
